A study of Mus musculus with 10 samples.

Results

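Genes for immune checkpoint ligands, adenosine-producing enzymes and other immunosuppressive factors that endothelium can carry were followed in CD31+ cells from mouse melanomas: Cd274, Pdcd1lg2, Lgals1, Lgals9, Entpd1, Nt5e, Pvr, Fasl, Tgfb1 and Ido1. They were taken by gene symbol from a list, and all 10 members were among the 28454 genes of the deposited FPKM values (fragments counted per gene, scaled for the length of its transcripts and for how many fragments the library had mapped). Of these, 7 members were among the 12805 genes tested, those that reached 1 FPKM in 4 or more of the 10 libraries, and Pdcd1lg2, Fasl and Ido1 were not. The study compared tumours of 4 wild-type libraries with those of 6 libraries from mice in which Shb, the gene of an adaptor protein that binds activated tyrosine kinase receptors, had been inactivated in endothelium. Wild-type mice carried Cdh5-CreERt2, an inducible Cre recombinase under the promoter of the endothelial cadherin gene, and the inactivated group was Shbflox/flox/Cdh5-CreERt2, so both groups held the recombinase. All mice were adult and bore B16F10 tumours, B16F10 being a transplantable mouse melanoma line. The sources used here do not give the inducing agent, its dose or whether a library came from 1 animal, so p-values measure only the spread between these libraries. The tissue label names tumours, and the source label names lungs as well. CD11b+ cells were depleted before magnetic selection on CD31, a surface protein that platelets and some leukocytes also carry.

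Endothelial cells line the vessels through which lymphocytes enter a tumour, and they can display inhibitory signals on their luminal face. PD-L1 and PD-L2 (Cd274 and Pdcd1lg2) bind PD-1 on T cells, galectins bind glycans on T cell surface proteins, and CD155 (Pvr) binds TIGIT, CD96 and CD226. CD39 (Entpd1) and CD73 (Nt5e) act in sequence to turn extracellular ATP into adenosine, which signals to T cells through its own receptors, while Fas ligand (Fasl) triggers death of Fas-bearing cells, TGF-beta 1 (Tgfb1) is a secreted suppressive cytokine and Ido1 breaks down tryptophan.

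Several of these genes are textbook targets of interferon, hypoxia or TGF-beta signalling, so their promoters were read from RefSeq (GRCm38.p6), each running from 250 bases before the annotated start site to 50 after it. The table held 8 promoters for 7 members, with 2 for Entpd1, and no entry for Lgals1, Pvr or Ido1. These motifs were searched on both strands: the IRF element GAAANNGAAA, the hypoxia element ACGTG and the SMAD element CAGAC. The GAS site, another element of interferon signalling, was planned for but not searched. The promoters shown are those of the 3 tested members with the largest differences between groups, with the upstream of the Entpd1 starts, and that of Cd274 for the PD-L1 gene; capitals mark motif matches, in the letters of the printed strand.
Lgals9, chr11:78984875-78985174, minus strand, IRF elements in capitals: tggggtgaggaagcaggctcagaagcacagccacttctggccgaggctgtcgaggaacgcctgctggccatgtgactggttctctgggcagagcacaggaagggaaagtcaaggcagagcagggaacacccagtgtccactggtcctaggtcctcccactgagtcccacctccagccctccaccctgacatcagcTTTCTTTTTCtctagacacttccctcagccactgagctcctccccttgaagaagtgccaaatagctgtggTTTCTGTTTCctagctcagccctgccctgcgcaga
Entpd1, chr19:40612116-40612415, plus strand, SMAD element in capitals: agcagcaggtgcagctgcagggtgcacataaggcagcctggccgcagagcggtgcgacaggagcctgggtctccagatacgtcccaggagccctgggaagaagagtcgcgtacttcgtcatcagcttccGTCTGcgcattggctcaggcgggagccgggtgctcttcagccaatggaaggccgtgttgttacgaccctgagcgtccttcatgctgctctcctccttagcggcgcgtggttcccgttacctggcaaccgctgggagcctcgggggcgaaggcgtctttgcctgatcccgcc
Nt5e, chr9:88327359-88327658, plus strand, SMAD elements in capitals: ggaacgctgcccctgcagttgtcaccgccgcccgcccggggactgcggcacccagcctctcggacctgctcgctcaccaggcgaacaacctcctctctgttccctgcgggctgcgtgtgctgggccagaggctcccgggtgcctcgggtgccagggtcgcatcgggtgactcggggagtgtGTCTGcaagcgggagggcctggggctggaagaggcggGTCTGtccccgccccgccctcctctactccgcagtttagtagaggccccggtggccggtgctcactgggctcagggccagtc
Cd274, chr19:29367188-29367487, plus strand, SMAD element first and hypoxia element second in capitals: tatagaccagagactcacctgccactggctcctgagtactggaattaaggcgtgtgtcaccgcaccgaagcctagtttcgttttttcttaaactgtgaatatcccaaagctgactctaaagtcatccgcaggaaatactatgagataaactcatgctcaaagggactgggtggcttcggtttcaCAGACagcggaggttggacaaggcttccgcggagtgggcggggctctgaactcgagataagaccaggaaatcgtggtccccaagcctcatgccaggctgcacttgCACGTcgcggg
The Lgals9 promoter alone among the 8 held the IRF element, with matches at positions -55 to -46 and 16 to 25 from the start site, whereas 3.44% of the 32851 promoters of the table held it. The hypoxia element was in the Cd274 promoter alone, at positions 40 to 44, beside 19.6% of all promoters, and the SMAD element was in 4 of the 8 member promoters (Nt5e, Cd274 and both of Entpd1) beside 49.6%. These matches are letters in a window and not binding sites.

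**Figure D1:**
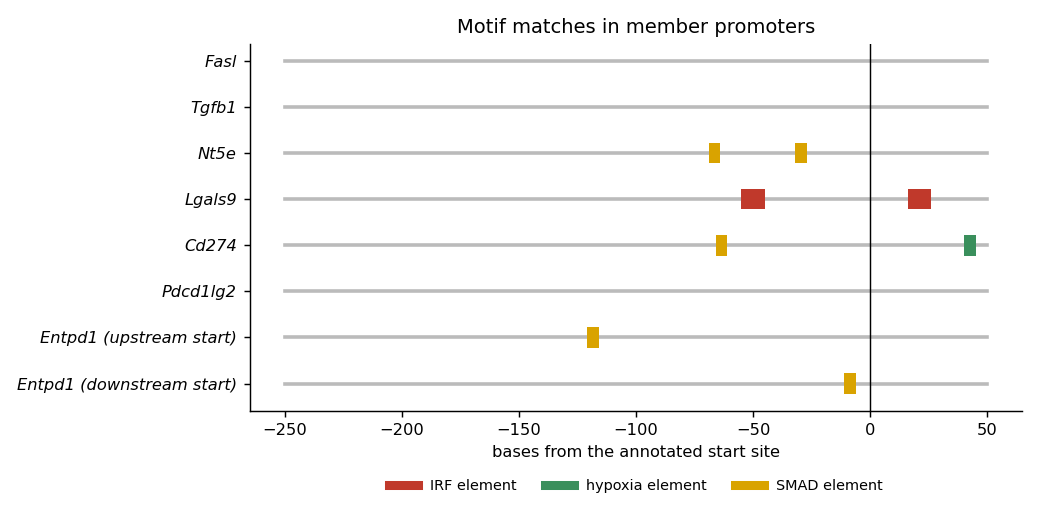
Motif matches along the 8 member promoters, with the distance from the annotated start site in bases on the horizontal axis and 1 line per promoter. Lgals9 carries both IRF matches, 4 promoters carry SMAD matches, and Cd274 carries the hypoxia match.

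Shb itself checked the labels: the wild-type libraries had 5.44, 3.27, 2.78 and 3.24 FPKM, in the order of their numbers, and it lay between 0.37 and 1.44 FPKM in the 6 Shb-inactivated libraries, with no overlap. A set of 3 libraries held many myeloid transcripts in spite of the CD11b depletion: Itgam, which encodes CD11b, was 109 FPKM in wild-type replicate 3 and 29.3 and 35.9 FPKM in Shb-inactivated replicates 3 and 4, and at most 5.85 FPKM elsewhere. These are called myeloid-rich below. Another 3 (replicate 1 of wild type, and replicates 1 and 2 of the inactivated group) listed 12 or 13 of 41 small nucleolar RNA (snoRNA) genes above 0, and the other 7 listed 22 to 33. The endothelial markers were abundant throughout, with summed levels over 16 genes of 3674 to 4711 FPKM in wild type and 4179 to 6029 FPKM after inactivation. All 16 had a positive log2 difference, with a median of 0.32. Pecam1, the gene of CD31, was 759 ± 138 FPKM (SD, n = 4) and 963 ± 137 FPKM (SD, n = 6). The 16 macrophage markers summed to 80.0 to 7732 FPKM and 70.6 to 5661 FPKM, and 9 melanoma markers to 97.6 to 1272 FPKM and 14.3 to 440 FPKM (median log2 difference -1.57, below 0 for 9 of 9). In bulk RNA, fewer cells of a type and less RNA per cell cannot be told apart.

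The members covered a wide range of levels, which FPKM, being scaled by transcript length, allows to be compared between genes. Lgals1 was highest at 473 ± 233 FPKM over the 10 libraries (SD, n = 10), above 99.4% of the 28299 genes with any signal. Entpd1 followed at 104 ± 36.7 FPKM, then Lgals9 at 83.9 ± 18.6, Pvr at 52.1 ± 12.8, Tgfb1 at 42.9 ± 12.5 and Nt5e at 36.5 ± 12.8 FPKM, all above at least 91.6% of genes. Cd274 was far lower at 4.09 ± 3.88 FPKM, and Fasl (0.374 FPKM), Pdcd1lg2 (0.346 FPKM) and Ido1 (0.119 FPKM) lay below the median gene. Lgals1 exceeded Entpd1, Lgals9 exceeded Pvr, Nt5e exceeded Cd274 and Cd274 exceeded Fasl in 10 of 10 libraries. Neighbours that did not hold their order were Entpd1 over Lgals9 (6 of 10 libraries), Pvr over Tgfb1 (6 of 10), Fasl over Pdcd1lg2 (7 of 10), Tgfb1 over Nt5e (8 of 10) and Pdcd1lg2 over Ido1 (8 of 10).

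**Figure D2:**
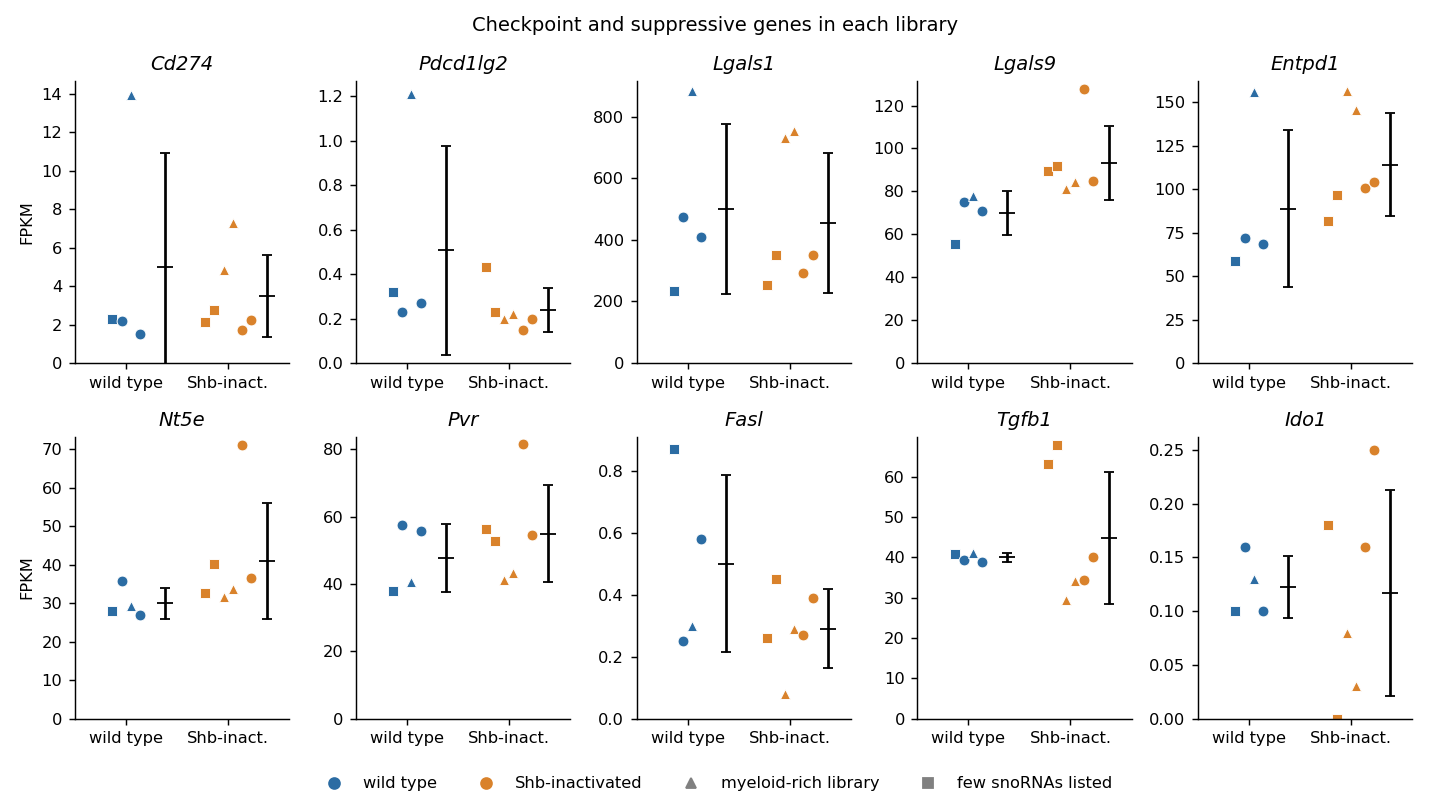
FPKM of each member in each library (points), with the group mean and SD beside them (n = 4 wild type, n = 6 Shb-inactivated); triangles mark the 3 myeloid-rich libraries and squares the 3 with few snoRNAs, and the lower bar of Cd274 in wild type is cut at 0. The groups do not overlap for Lgals9, and for Cd274, Lgals1 and Entpd1 the triangles lie above the other libraries of their group.

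Across the 12805 genes tested, none passed an adjusted p of 0.05 for Shb-inactivated against wild type (limma on log2(FPKM + 1), and likewise by the exact permutation test). An unadjusted p under 0.05 was reached by 442 genes (3.45%) with limma and 495 (3.87%) with the exact permutation test. Of the 7 members tested, 5 had a positive log2 difference, where 51.2% of all genes did, and their median was 0.19 beside 0.01 over all genes tested. At the unadjusted threshold 1 member, Lgals9, was higher, where 1.69% of genes tested were. It was also the only tested member whose groups did not overlap, where 0.539% of genes tested did not overlap in that direction. The adjusted limma p of the members lay between 0.989 and 0.996. Without the myeloid-rich libraries Lgals9 and Entpd1 were under an unadjusted limma p of 0.05, where 5.31% of genes tested were. The members' median was then 0.31, and without the libraries with few snoRNAs it was 0.07.

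**Figure D3:**
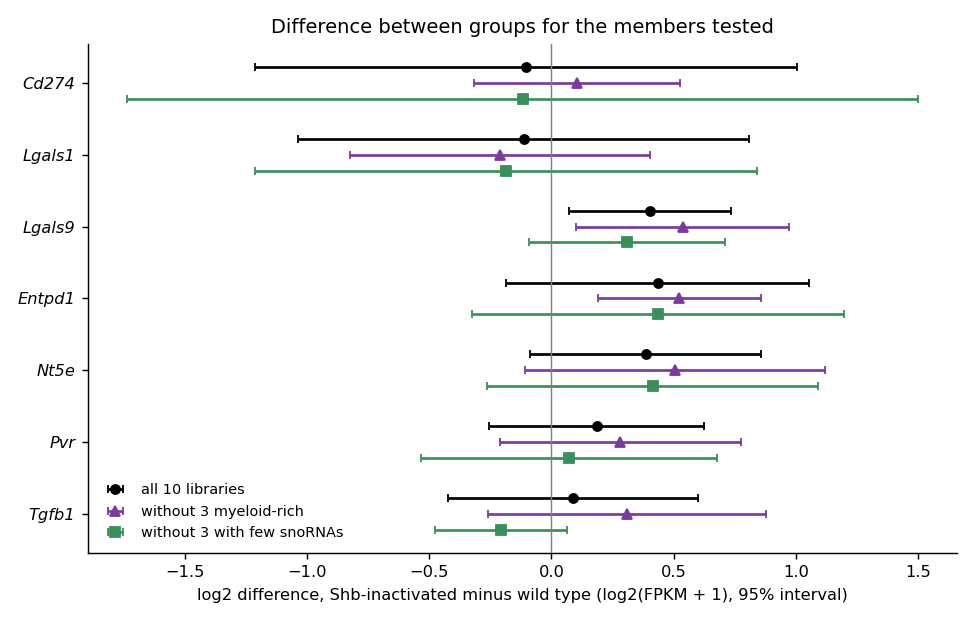
Difference in mean log2(FPKM + 1), Shb-inactivated minus wild type, for the 7 members tested, with 95% limma intervals over all 10 libraries, without the 3 myeloid-rich and without the 3 with few snoRNAs. The interval of Lgals9 lies above 0 over all libraries (0.07 to 0.74) and that of Entpd1 does so without the myeloid-rich libraries (0.19 to 0.86).

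The genes of the PD-1 ligands neighbour each other on chromosome 19, with Cd274 at chr19:29367455-29388095 and Pdcd1lg2 at chr19:29410919-29471161, both on the plus strand and 22823 bases apart (GRCm38, GENCODE vM21). Cd274 in wild-type replicates 1 to 4 was 2.27, 2.19, 13.9 and 1.52 FPKM, and in Shb-inactivated replicates 1 to 6 it was 2.14, 2.74, 4.82, 7.28, 1.72 and 2.26 FPKM. The 3 highest values belonged to the 3 myeloid-rich libraries, and the groups overlapped throughout. The means were 4.98 ± 5.98 FPKM (SD, n = 4) and 3.49 ± 2.15 FPKM (SD, n = 6), a log2 difference of -0.11 (95% interval -1.21 to 1.00, exact permutation p = 0.905). Without the myeloid-rich libraries Cd274 was 1.99 ± 0.412 FPKM in 3 wild-type and 2.22 ± 0.420 FPKM in 4 Shb-inactivated libraries, and the log2 difference was 0.10 (exact permutation p = 0.486). Its direction thus turned with the myeloid-rich libraries, and it also turned without wild-type replicate 3 alone (0.48) or Shb-inactivated replicate 5 alone (0.02). Pdcd1lg2 was 0.32, 0.23, 1.21 and 0.27 FPKM in wild type and 0.15 to 0.43 FPKM in the inactivated group (median 0.21). Its highest value was again wild-type replicate 3, and its log2 difference was -0.24 (exact permutation p = 0.119), or -0.03 without the myeloid-rich libraries (exact permutation p = 0.8). Both genes overlap antisense transcripts on the opposite strand (A930007I19Rik for Pdcd1lg2, at 0.04 to 1.25 FPKM). Since no source says whether the counting used strand, at these levels the transcripts cannot be told apart.

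Lgals9, which encodes galectin-9, a ligand of TIM-3, lies at chr11:78962974-78984946 on the minus strand. The wild-type libraries, from replicate 1 to replicate 4, had 55.4, 75.3, 78.0 and 71.0 FPKM. In Shb-inactivated replicates 1 to 6 it was 89.5, 91.7, 80.9, 84.3, 128 and 85.0 FPKM. All 6 inactivated libraries lay above the 4 wild-type ones, the lowest of them by a narrow margin over wild-type replicate 3. The means were 69.9 ± 10.1 FPKM (SD, n = 4) and 93.2 ± 17.4 FPKM (SD, n = 6), a ratio of 1.33 and a log2 difference of 0.40 (SE 0.15, 95% interval 0.07 to 0.74). By exact permutation this gave p = 0.00476, the lowest value possible over 210 splits, and 0.990 after adjustment over all genes. limma gave p = 0.0214, adjusted 0.989, so the difference did not pass. Without wild-type replicate 1 alone it was 0.30 (95% interval -0.03 to 0.62), and the unadjusted p was then over 0.05 as well (limma 0.0674, exact permutation 0.0714). Without the myeloid-rich libraries it was 0.54 (exact permutation p = 0.0286, the smallest that 35 splits allow) and without those with few snoRNAs 0.31 (exact permutation p = 0.0857), with no overlap in either case, where 4.40% and 2.48% of genes tested did not overlap in that direction.

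The CD31 gene moved with Lgals9 over the same libraries. Pecam1 ranged from 569 to 864 FPKM in wild type and from 873 to 1237 FPKM after inactivation, also without overlap, and the lowest and highest libraries for both genes were wild-type replicate 1 and Shb-inactivated replicate 5. As a percent of Pecam1 in the same library, Lgals9 was 9.29 ± 0.991% in wild type and 9.64 ± 0.437% after inactivation, and the groups overlapped (exact permutation p = 0.443). As a percent of Cdh5, the endothelial cadherin gene, it was 17.4 ± 2.25% and 17.9 ± 2.47% (exact permutation p = 0.729). These p-values are unadjusted, from 18 such ratios tested over the members, of which the smallest was 0.0190 for Pdcd1lg2 as a percent of Cdh5 (exact permutation). With the mean level of the 16 endothelial markers in the model the log2 difference of Lgals9 was 0.28 (SE 0.17, limma adjusted p = 0.854). With that of the melanoma markers it was 0.22 (SE 0.15, limma adjusted p = 0.9998).

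Lgals1 encodes galectin-1, a galectin of tumour endothelium that can kill activated T cells, and lies at chr15:78926725-78930465 on the plus strand. Its wild-type values were 234, 474, 882 and 409.9 FPKM in order of replicate number. In Shb-inactivated replicates 1 to 6 it was 253, 349, 732, 755, 292 and 350.1 FPKM. Here too the 3 myeloid-rich libraries were highest, and the groups overlapped. The log2 difference was -0.11 (SE 0.42, 95% interval -1.04 to 0.81, exact permutation p = 0.814). Over the other 7 libraries Lgals1 was 372 ± 125 FPKM (SD, n = 3) and 311 ± 47.5 FPKM (SD, n = 4), with a log2 difference of -0.21 (exact permutation p = 0.486). With the macrophage marker level in the model the sign turned (0.06), and it turned as well without wild-type replicate 3 alone (0.21) or Shb-inactivated replicate 1 alone (0.03).

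**Figure D4:**
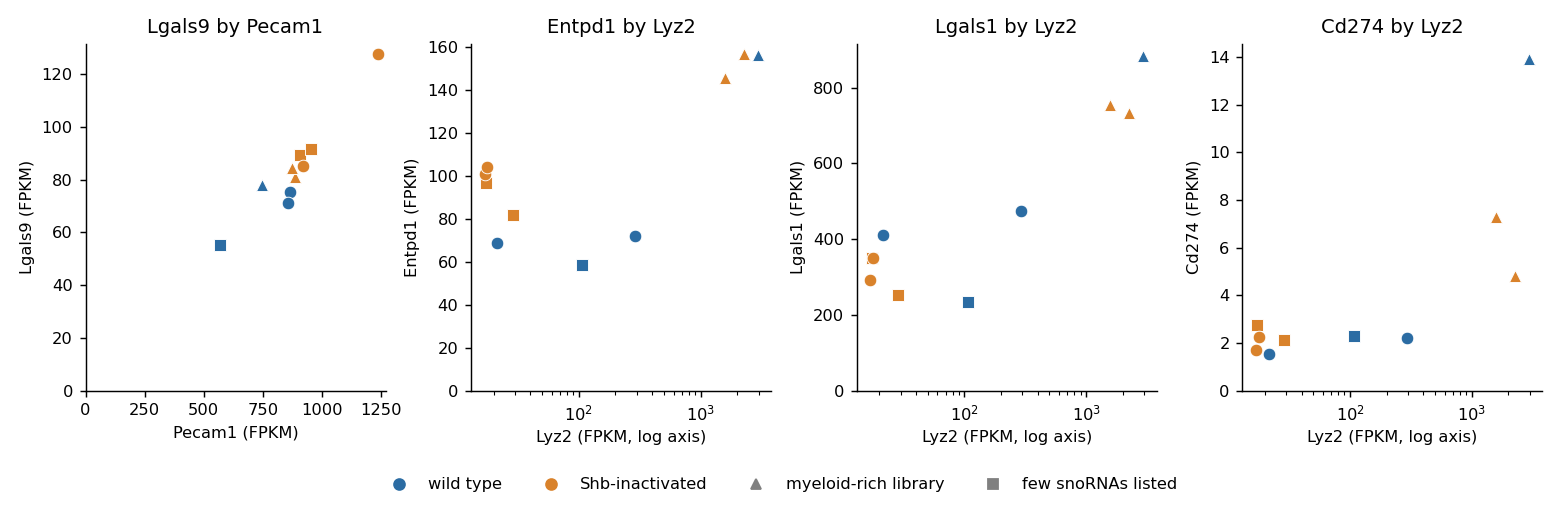
Lgals9 against Pecam1, and Entpd1, Lgals1 and Cd274 against Lyz2, a myeloid lysozyme gene (log axis), in FPKM, 1 point per library. Lgals9 is lowest and highest in the libraries lowest and highest in Pecam1, and Entpd1, Lgals1 and Cd274 are highest in the 3 libraries with at least 1577 FPKM of Lyz2.

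Of the adenosine enzymes, Entpd1 encodes CD39, which removes phosphates from extracellular ATP and ADP, and lies at chr19:40612366-40741602 on the plus strand. In wild type its values were 58.6, 71.7, 156 and 68.6 FPKM in order of replicate number. In Shb-inactivated replicates 1 to 6 it was 81.7, 96.4, 156, 145, 101 and 104 FPKM. The highest wild-type value was the myeloid-rich library and was close to the myeloid-rich inactivated ones, while the other 3 wild-type libraries lay under all 6 inactivated ones. The log2 difference was 0.43 (SE 0.28, 95% interval -0.19 to 1.05, exact permutation p = 0.186). It was 0.74 without wild-type replicate 3 alone (exact permutation p = 0.0238, limma p = 0.00566, adjusted 0.855) and 0.28 without wild-type replicate 1 alone (exact permutation p = 0.393). Without the myeloid-rich libraries Entpd1 was 66.3 ± 6.89 FPKM (SD, n = 3) and 95.7 ± 9.88 FPKM (SD, n = 4), higher in 4 of 4 inactivated libraries than in any wild-type one, where 4.40% of genes tested did not overlap in that direction. That log2 difference was 0.52 (exact permutation p = 0.0286, the smallest 35 splits allow; limma p = 0.00685, adjusted 0.840). As a percent of Pecam1 over all 10 libraries, Entpd1 was 11.9 ± 6.13% and 12.1 ± 4.03% (exact permutation p = 0.790), overlapping. Without the myeloid-rich libraries Entpd1 was 7.99 to 10.3% of Pecam1 in wild type and 8.14 to 11.3% after inactivation, also overlapping. With the endothelial marker level in the model its log2 difference was 0.82 (SE 0.28, limma adjusted p = 0.854), and with the macrophage marker level 0.55 (SE 0.17, limma adjusted p = 0.869).

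Nt5e encodes CD73, which makes adenosine from AMP, and lies at chr9:88327197-88372092 on the plus strand. It was 28.0, 35.7, 29.2 and 26.9 FPKM in wild type, with the lowest, median and highest inactivated libraries at 31.7, 35.1 and 71.0 FPKM. The groups overlapped through wild-type replicate 2, and Shb-inactivated replicate 5 stood apart from the other inactivated libraries (31.7 to 40.1 FPKM). The means were 29.9 ± 3.96 FPKM (SD, n = 4) and 40.9 ± 15.1 FPKM (SD, n = 6), a log2 difference of 0.39 (SE 0.21, 95% interval -0.09 to 0.86, exact permutation p = 0.0952). Without Shb-inactivated replicate 5 it was 0.22 (exact permutation p = 0.0794). The same library held the highest summed level of 9 pericyte markers (705 FPKM, others 112 to 335 FPKM) and the highest Pecam1. Their part in its Nt5e level was not tested. As a percent of Pecam1, Nt5e was 4.03 ± 0.737% and 4.16 ± 0.812%.

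Pvr encodes CD155 and lies at chr7:19903578-19921160 on the minus strand, overlapped on the other strand by the low transcripts Gm16184 (0.54 to 2.42 FPKM) and Gm16251 (at most 0.48 FPKM). Its wild-type values were 37.8, 57.4, 40.5 and 55.6 FPKM, and the lowest, median and highest inactivated libraries had 41.3, 53.8 and 81.6 FPKM. Only Shb-inactivated replicate 5 exceeded all wild-type libraries. The means were 47.8 ± 10.1 FPKM (SD, n = 4) and 55.0 ± 14.4 FPKM (SD, n = 6), and the log2 difference was 0.19 (SE 0.20, 95% interval -0.25 to 0.63, exact permutation p = 0.438). It was 0.07 without Shb-inactivated replicate 5, 0.08 without wild-type replicate 1 and 0.12 without wild-type replicate 3. With the endothelial or the melanoma marker level in the model its sign turned (-0.10 and -0.11).

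Fasl, whose product engages Fas, lies at chr1:161780689-161788495 on the minus strand and was near the lower end of the scale. It was 0.87, 0.25, 0.30 and 0.58 FPKM in wild type and 0.08 to 0.45 FPKM after inactivation (median 0.28), with a log2 difference of -0.20 (exact permutation p = 0.157), or -0.09 without wild-type replicate 1 (exact permutation p = 0.429). The highest value was in wild-type replicate 1, and the groups overlapped. That library also had the highest summed level of 15 T and NK cell markers, 53.8 FPKM, where the others had 8.47 to 40.9 FPKM, and the highest Cd3e (2.09 FPKM). The part of those cells in the Fasl level was not tested. Ido1, at chr8:24584136-24597009 on the minus strand, was 0.10, 0.16, 0.13 and 0.10 FPKM in wild type. It was 0.18, 0.08, 0.03, 0.16 and 0.25 FPKM in 5 inactivated libraries and listed at 0 in Shb-inactivated replicate 2. The inactivated values lay on both sides of the wild-type ones, and at this level no difference was detectable (log2 difference -0.01, exact permutation p = 0.895). Its sign turned without wild-type replicate 2 (0.0043), Shb-inactivated replicate 2 (0.02) or Shb-inactivated replicate 4 (0.01).

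Tgfb1, at chr7:25687002-25705077 on the plus strand, was nearly equal in the wild-type libraries at 40.7, 39.3, 41.0 and 39.0 FPKM. In Shb-inactivated replicates 1 to 6 it was 63.0, 68.0, 29.3, 34.1, 34.4 and 40.0 FPKM. A pair of inactivated libraries thus lay above all wild-type ones and 3 lay below. The SD was 1.02 FPKM in wild type (mean 40.0, n = 4) and 16.5 FPKM after inactivation (mean 44.8, n = 6), and the log2 difference was 0.09 (SE 0.23, 95% interval -0.42 to 0.60, exact permutation p = 0.729). The high pair, Shb-inactivated replicates 1 and 2, were the inactivated libraries with few snoRNAs, whereas wild-type replicate 1, also poor in snoRNAs, had 40.7 FPKM. Without these 3 libraries Tgfb1 was 39.7 ± 1.09 FPKM (SD, n = 3) and 34.5 ± 4.36 FPKM (SD, n = 4), and the sign turned (log2 difference -0.21, exact permutation p = 0.114). It turned too without Shb-inactivated replicate 1 (-0.02) or 2 (-0.04) alone.

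Other genes of the same pathways, read from 9 lists, gave no gene past the adjusted threshold in limma or the exact permutation test, and the smallest adjusted limma p in any list was 0.989. Genes named are the 3 most abundant of each list, and any others were chosen after their values were seen. Beside the counts of positive differences below, 51.2% of all genes tested had one, as did 16 of 16 endothelial markers (median 0.32). Further ligands of inhibitory and costimulatory receptors had 15 of 19 genes tested, 9 of them with a positive difference (median 0.13). Cd200, whose product restrains myeloid cells through its receptor, was 116 ± 25.7 FPKM (SD, n = 4) and 158 ± 25.3 FPKM (SD, n = 6), with an unadjusted exact permutation p of 0.0381 and overlapping groups. Hmgb1, a nuclear protein that TIM-3 can bind once released, was 368 ± 97.2 and 393 ± 30.6 FPKM and Lgals3, which encodes galectin-3, 223 ± 349 and 214 ± 293 FPKM. Lgals3 was 590 to 744 FPKM in the myeloid-rich libraries and at most 85.0 FPKM elsewhere. Of 11 tested receptor genes, 10 had a negative difference (median -0.36, and -0.28 without the myeloid-rich libraries). Sirpa, an inhibitory receptor of myeloid cells, was 54.6 ± 70.8 and 48.2 ± 61.4 FPKM, and the exception was Tnfrsf9 (4-1BB), at 25.5 ± 5.51 and 39.3 ± 29.5 FPKM. Sirpa was 121 to 160 FPKM in the myeloid-rich libraries and at most 30.3 FPKM elsewhere. Shb-inactivated replicate 5 had 98.25 FPKM of Tnfrsf9, and the groups overlapped (exact permutation p = 0.457). Lymphocyte and macrophage markers moved with this list: all 8 tested T and NK markers and all 16 macrophage markers had a negative difference (medians -0.26 and -0.74), and their part in it was not tested.

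Of the lymphocyte receptors that PD-1 ligands, CD155 and galectin-9 bind, Pdcd1 (PD-1) was 0.76 to 6.23 FPKM in wild type and 0.07 to 2.31 FPKM after inactivation, and Tigit was 0.03 to 1.48 and 0 to 0.72 FPKM. Both wild-type maxima were replicate 1, and the other wild-type libraries had 0.76 to 0.89 FPKM of Pdcd1 and 0.03 to 0.14 FPKM of Tigit. The groups overlapped for both genes (exact permutation p = 0.490 for Pdcd1 and 0.748 for Tigit). Cd226, the activating receptor of CD155, was 3.44 to 10.6 FPKM in wild type and 0.82 to 5.19 FPKM after inactivation, with overlapping groups. Havcr2 (TIM-3) was 9.78 to 14.1 FPKM in the 3 myeloid-rich libraries and at most 1.28 FPKM elsewhere. The adenosine list had 6 of 17 tested genes above 0 (median -0.07). Its most abundant genes were the nucleoside transporter Slc29a1 (90.1 ± 15.5 and 105 ± 18.3 FPKM) and Cd38, an enzyme that uses NAD (68.2 ± 17.0 and 77.1 ± 17.0 FPKM). Adk, the kinase that removes adenosine, was 12.04 ± 3.53 and 10.6 ± 4.95 FPKM. Adora2a, an adenosine receptor of T cells and endothelium, was 2.98 to 5.73 FPKM in wild type and 1.61 to 10.2 FPKM after inactivation, with overlapping groups.

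TGF-beta pathway genes had a positive difference in 15 of 23 tested (median 0.14). Thbs1, which activates latent TGF-beta, was 469 ± 118 and 506 ± 209 FPKM, and the coreceptor Eng was 192 ± 24.8 and 232 ± 83.4 FPKM. A trio chosen after seeing the values had unadjusted limma p under 0.05, all higher, where 1.69% of genes tested were. Tgfbr3, a coreceptor, was 4.95 ± 1.15 and 7.87 ± 1.34 FPKM, and Tgfbr2, the type II receptor, 58.3 ± 8.88 and 72.2 ± 6.22 FPKM. Lrrc32, which tethers latent TGF-beta at the cell surface, was 19.2 ± 1.78 and 36.1 ± 15.9 FPKM. Lrrc32 was 40.3 and 62.9 FPKM in Shb-inactivated replicates 1 and 2, the pair high in Tgfb1. Replicate 5, where Tgfb1 was 34.4 FPKM, also had 42.9 FPKM of Lrrc32. In the other lists, unadjusted limma p under 0.05 went both ways. Higher were 1 gene of the ligand list and 2 each of the interferon-gamma and death receptor lists. Lower were 1 gene each of the adenosine (Dpp4), tryptophan (Kmo) and suppressive factor (Vegfa) lists. In either direction 3.45% of genes tested were under that threshold.

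Interferon-gamma pathway genes were above 0 in 16 of 22 tested (median 0.16). Jak1, the receptor-bound kinase, was 73.7 ± 2.86 FPKM (SD, n = 4) and 88.2 ± 7.60 FPKM (SD, n = 6). Its groups did not overlap, where 0.539% of genes tested did not overlap in that direction. The unadjusted exact permutation p of Jak1 was 0.00476, the lowest possible over 210 splits, and its adjusted limma p was 0.989. Hif1a, the oxygen-regulated subunit of the hypoxia factor, was 115 ± 16.4 and 131 ± 31.5 FPKM and the receptor subunit Ifngr1 92.7 ± 15.1 and 98.0 ± 10.3 FPKM. Death receptor genes were above 0 in 13 of 15 (median 0.14), with the TNF receptor gene Tnfrsf1a at 79.4 ± 16.7 and 87.2 ± 13.3 FPKM, the caspase gene Casp8 at 66.2 ± 13.1 and 72.2 ± 11.3 FPKM, and Cflar, an inhibitor of that caspase, at 63.4 ± 11.8 and 66.3 ± 11.04 FPKM. Fas, the receptor of Fasl, was 3.75 to 8.51 FPKM in wild type and 2.92 to 8.68 FPKM after inactivation.

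Genes of tryptophan and arginine breakdown were above 0 in 4 of 8 tested (median -0.01). Arg1, an arginase of myeloid cells, was 331 FPKM in wild-type replicate 3 and 1.62 to 33.8 FPKM in the other wild-type libraries. After inactivation it was 22.4 and 59.2 FPKM in the myeloid-rich replicates 3 and 4 and at most 1.11 FPKM elsewhere. The means were 92.4 ± 159 and 14.1 ± 23.7 FPKM, and the groups overlapped (exact permutation p = 0.243). Wars, the tryptophan tRNA ligase, was 25.7 ± 0.594 and 26.7 ± 3.26 FPKM and Nos2, the inducible nitric oxide synthase, 10.03 ± 2.78 and 11.9 ± 4.88 FPKM. Galectins and their partners were above 0 in 5 of 9 (median 0.06), among them P4hb, a surface partner of galectin-9 (358 ± 54.5 and 369.8 ± 27.2 FPKM), and Nrp1, a partner of galectin-1 (201 ± 52.0 and 245 ± 32.5 FPKM). Other suppressive factors were above 0 in 4 of 13 (median -0.29), with Ednrb, the endothelin B receptor that limits T cell adhesion, at 347 ± 96.5 and 461 ± 113 FPKM, heme oxygenase Hmox1 at 255 ± 416 and 237 ± 332 FPKM and Ptges3, a prostaglandin E synthase, at 114 ± 30.1 and 126 ± 36.6 FPKM. Hmox1 was 621 to 878 FPKM in the myeloid-rich libraries and at most 83.5 FPKM elsewhere.

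**Figure D5:**
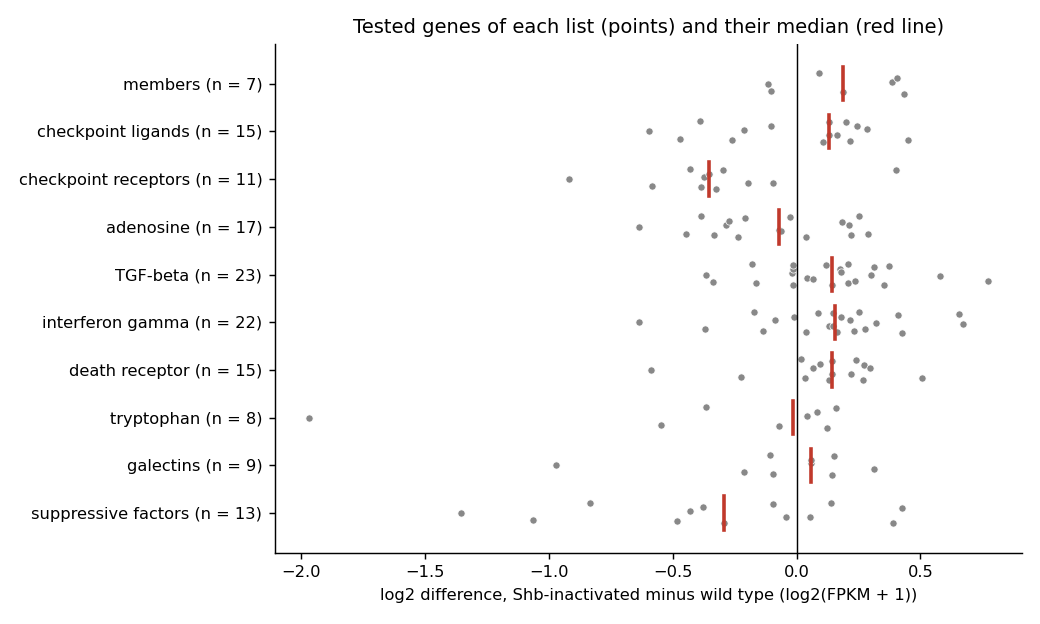
Difference in mean log2(FPKM + 1), Shb-inactivated minus wild type, of each tested gene (grey points) among the members and in the 9 pathway lists, with the list median in red and n the genes tested. The medians run from -0.36 for checkpoint receptors to 0.19 for the members, and no gene shown passed the adjusted threshold.

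The members differed in which other genes followed their pattern, given as Pearson correlations of log2(FPKM + 1) over the 10 libraries among 8973 genes; the libraries share cell makeup, so these are descriptions. Lgals9 was most like Pde4b (r = 0.96 over 10 libraries and 0.96 over the 7 that were not myeloid-rich), Cttnbp2nl (0.96 and 0.97) and Srr (0.95 and 0.97). Nt5e was most like Bbs9 (0.95 and 0.95), Tnfrsf9 (0.94 and 0.97) and Sft2d2 (0.93 and 0.97), and Pvr was most like Sept4 (0.97 and 0.98), Serpine2 and Ube2d1. Entpd1 was closest to Rcan1 (0.98 and 0.93), Klf6 (0.97 and 0.91) and Tmem50b (0.96 and 0.82). The closest genes to Lgals1 were 2210016F16Rik (0.98 and 0.89), Blvrb and Anapc13, and to Tgfb1 they were Mus81 (0.97 and 0.98), Tssc4 and Rps6ka4. For Cd274 they were Pim1 (0.98 and 0.72), Atg7 (0.98 and 0.67) and Unc93b1 (0.98 and 0.80), lower in each case over the 7 libraries. Between members, Lgals9 and Nt5e went together over both sets (0.87 and 0.89), as did Lgals9 and Pvr (0.75 and 0.91). Shb-inactivated replicate 5 was the highest library for Lgals9, Nt5e and Pvr (127.79, 71.02 and 81.6 FPKM) and was in both sets. Correlations without that library were not computed. Cd274 and Lgals1 had r = 0.83 over 10 libraries and -0.14 over the 7.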

How the data were processed

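RNA of 10 libraries of CD31+ tumour cells (4 wild type, 6 Shb-inactivated) was sequenced from stranded total RNA libraries after ribosomal RNA removal, per the labels' protocols. The values the authors deposited are FPKM per gene symbol, written with a decimal comma. The tools named are TopHat2 2.1.1 and Cufflinks 2.2.1, and the build is GRCm38, per the submitters' processing notes; the sources used here give no annotation, strand setting or read depth. FPKM summed to 477329 to 576687 per library, and Spearman correlations between libraries were 0.892 to 0.951. FPKM were taken as log2(FPKM + 1), so fold changes of low genes are understated, and genes that reached 1 FPKM in 4 or more libraries were tested with limma 3.58.1 (R 4.3.3; mean-variance trend, two-sided, Benjamini-Hochberg adjustment over all genes tested; threshold 0.05). Single genes were also tested by two-sided exact permutation over all 210 splits. The script was tested on simulated data. The members and the lists were chosen with earlier results of these data known. Named genes are all 10 members, Shb, the 3 most abundant genes of each of 9 pathway lists and any of them past the threshold, the 3 genes most like each tested member (mean of at least 5 FPKM), and markers from 10 cell type lists; some items this rule names are not reported here. Myeloid-rich means over 20 FPKM of Itgam, and few snoRNAs means under 20 such genes above 0. Older symbols were matched through RefSeq names. Alternatives were pseudocounts of 0.1 and 5, no filter, a mean of at least 5 FPKM, scaling to a fixed sum, quantile normalization, library weights, marker score covariates, a replicate block and left-out libraries. Numbers shared by replicates were not treated as pairs.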

Additional observations from a re-analysis of the deposited data

Results flagged for a closer look

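Within a group, a library was singled out where its gap to the nearest other one took up more of the group's range than Dixon's 95% limit allows. For independent, normally distributed values chance does so in about 1 in 20 groups. These were untransformed FPKM and the groups share libraries, so that rate need not hold here. In 20 groups of members 7 values stood apart, all of them high. In wild type all of these were replicate 3, a myeloid-rich library: Cd274 was 13.93 FPKM (others 1.52 to 2.27), Pdcd1lg2 1.21 FPKM (others 0.23 to 0.32) and Entpd1 156.06 FPKM (others 58.55 to 71.74). In the Shb-inactivated group, replicate 5 was high for Lgals9 at 127.79 FPKM (others 80.88 to 91.67), Nt5e at 71.02 FPKM (others 31.65 to 40.06) and Pvr at 81.6 FPKM (others 41.33 to 56.22). Replicate 1 was high for Pdcd1lg2 at 0.43 FPKM (others 0.15 to 0.23). Without Shb-inactivated replicate 5 the log2 difference of Lgals9 was 0.31 (0.40 with it), that of Nt5e 0.22 (0.39 with it) and that of Pvr 0.07 (0.19 with it).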

How the results depend on the processing

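Depth is unknown, so no counting error could be given, and Pdcd1lg2, Fasl and Ido1 lie where values are few steps above 0. Over the 24 alternatives limma called 0 genes, with a smallest adjusted p of 0.246 (without the myeloid-rich libraries), and the median of the members tested ran from 0.07 to 0.38 (0.04 over all 10 members with no filter). Lgals9 (0.21 to 0.54), Entpd1 (0.28 to 0.82) and Nt5e (0.20 to 0.51) kept a positive log2 difference in all 24. Some members changed sign, and the cause was not tested. Cd274 was 0.0085 with quantile normalization, 0.30 with library weights, 0.11, 0.32, 0.13 and 0.56 with macrophage, melanoma, both and endothelial scores, and 0.10 without the myeloid-rich libraries. Lgals1 was 0.060, 0.079 and 0.41 with macrophage, melanoma and endothelial scores. Pvr was -0.012 with library weights and -0.11, -0.082 and -0.10 with melanoma, both and endothelial scores. Tgfb1 was -0.27 with the endothelial score and -0.21 without the libraries with few snoRNAs, and Ido1 was 0.031 without the myeloid-rich libraries. Leaving out 1 library at a time gave -0.38 to 0.48 for Cd274, -0.43 to 0.21 for Lgals1, -0.044 to 0.19 for Tgfb1 (negative without Shb-inactivated replicate 1 or 2) and -0.045 to 0.019 for Ido1. Pdcd1lg2 (-0.24) was -0.28 without Shb-inactivated replicate 1 (unadjusted exact permutation p = 0.0159), -0.34 without the libraries with few snoRNAs (p = 0.0286) and -0.04 without wild-type replicate 3 (p = 0.607). Fasl (-0.20) was -0.29 without wild-type replicate 2 (exact permutation p = 0.0476) and -0.09 without wild-type replicate 1 (p = 0.429). The endothelial score and the leaving out of libraries with few snoRNAs were chosen after seeing the data. Correlations of same-numbered deviations were 0.44, -0.32, 0.71 and -0.55, which gave no steady sign of pairs by replicate number. Cell makeup enters these correlations, so they cannot exclude pairing. With the replicate block 0 genes were called and 291 had an unadjusted limma p under 0.05, against 442. In that block fit Cd274 was 0.13, Lgals1 0.071, Lgals9 0.32 and Entpd1 0.49. Cd274 has no value under the filter on a mean of 5 FPKM.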
